A study of Mus musculus with 12 samples.

Results

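The genes described here are Tph2, which encodes the neuronal tryptophan hydroxylase, and 9 serotonin receptor genes, Htr1a, Htr1b, Htr1d, Htr1f, Htr2a, Htr2c, Htr4, Htr5a and Htr7. They were taken by symbol, and all 10 were found among the 34193 gene rows of the table. Tph2 was picked because its level differed between the genotypes, so its genotype difference is a description and is used to support nothing. The receptors were added as its signalling partners, with their values known, and the same holds for them. The table held 14 serotonin receptor genes in all, and the 5 outside the group, Htr2b, Htr3a, Htr3b, Htr5b and Htr6, are given below with the rest of the pathway.

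Serotonin is made from tryptophan by an aromatic amino acid hydroxylase and a decarboxylase. In the brain this takes place in neurons of the raphe nuclei of the brainstem, which express Tph2 and send axons throughout the cerebral cortex. Cortical neurons receive the transmitter through a family of receptors that, apart from the Htr3 ion channels, couple to G proteins: the Htr1 and Htr5 types to inhibitory Gi/o, the Htr2 types to Gq, and Htr4, Htr6 and Htr7 to Gs.

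Total RNA of the cerebral cortex of mice aged 8 weeks was sequenced after depletion of ribosomal RNA. All 12 samples carried Nsd1 flx/flx, that is, both alleles of Nsd1, a methyltransferase for lysine 36 of histone H3, flanked for recombination. The conditional knockout (cKO) group was Nestin-cre +/- and the control group Nestin-cre -/-, with 6 libraries each, so that the controls share the modified alleles and lack only Cre. Nestin-Cre is a transgene active in the neural lineage, neurons and glia alike. The labels speak of biological replicates but name no animal, and the p-values therefore rest on the spread among these libraries, which may be technical.

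Values are the authors' normalised reads, that is, reads per gene scaled between libraries. Reads assigned to genes numbered 10.5 to 27.0 M per library, and the value of 3 reads lay between 1.98 and 5.64 normalised reads. In each genotype libraries 1 to 3 held Y-linked reads and libraries 4 to 6 held none, save 3 reads in cKO library 6, and these 2 sets (with and without Y-linked reads) are a term of the model. Their reads did not match the sex labels of the same numbers, so columns were tied to a genotype and not to single samples. Nsd1 itself stood at 4235 ± 850 normalised reads in the controls against 3251 ± 299 in cKO libraries (SD, n = 6 each), a difference that did not pass the threshold (log2 fold change -0.36, limma adjusted p = 0.383). The value covers the whole gene, including any part outside the deletion. Mitochondrial ribosomal RNA took 14.2% and 11.5% of the reads in control libraries 4 and 5 and at most 6.00% in the others.

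The stretch upstream of the start site is shown for the member with the largest genotype difference, Tph2, and for the one receptor member whose difference lay below 0, Htr7. Both are RefSeq sequences of build GRCm38.p6, 250 bases ending at the base before the annotated start, read on the gene's own minus strand, with each CG dinucleotide in capitals. The submitters' processing notes name build mm9, and the deposited table holds no coordinates, so these windows were not set against any measurement. The windows lie at chr10:115185023-115185272 (Tph2) and chr19:36057361-36057610 (Htr7).
Tph2: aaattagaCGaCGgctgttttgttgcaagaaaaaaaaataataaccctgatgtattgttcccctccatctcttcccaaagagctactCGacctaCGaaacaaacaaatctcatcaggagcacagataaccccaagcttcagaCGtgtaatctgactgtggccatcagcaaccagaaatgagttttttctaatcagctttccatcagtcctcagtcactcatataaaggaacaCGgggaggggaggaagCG
Htr7: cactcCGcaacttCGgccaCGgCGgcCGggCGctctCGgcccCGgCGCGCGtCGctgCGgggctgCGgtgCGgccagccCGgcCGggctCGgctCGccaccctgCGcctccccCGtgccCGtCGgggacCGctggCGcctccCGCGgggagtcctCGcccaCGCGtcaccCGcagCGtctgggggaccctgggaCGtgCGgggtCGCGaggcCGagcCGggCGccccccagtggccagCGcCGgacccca
The Tph2 window held 7 CG dinucleotides and the Htr7 window 41, against a median of 6 over 32851 windows of the same length, of which 1.09% held at least as many as Htr7. A promoter window was found for 9 of the 10 genes, all but Htr4, and Htr1d had a pair of them. Of these 10 windows only that of Tph2 contained TATAAA (either strand), which was present in 12.4% of all windows. CCAAT, searched on both strands, was in 3 of the 10 and in 33.8% of all windows.

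Tph2 stood at 17.5 to 44.4 normalised reads in the control libraries, with a median of 28.0. In the cKO libraries it stood at 51.5 to 85.4, with a median of 68.8. The lowest cKO library exceeded the highest control, a separation in this direction found for 0.813% of the 14397 tested genes, those averaging 10 or more normalised reads; 0.577% of them differed by more than 2-fold in either direction. The means were 28.4 ± 9.86 in the controls against 68.6 ± 13.4 in cKO libraries (SD, n = 6 each), giving a ratio of 2.42 and a difference of 1.29 (SE 0.21) on the log2(value + 1) scale. These levels rest on 14 to 86 reads per library. Among the controls library 1 was highest and library 6 lowest; among the cKO libraries library 4 was highest and library 2 lowest. No gene of RefSeq overlaps the span of Tph2.

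The difference in Tph2 was present in both sets of libraries. Among those with Y-linked reads the level was 29.6 ± 13.0 in the controls against 63.1 ± 12.1 in cKO libraries (SD, n = 3 each). Among those without, it was 27.2 ± 8.38 and 74.2 ± 14.4 normalised reads. The log2 fold changes of 1.13 and 1.45 did not differ beyond their error (difference -0.32, SE 0.43, limma adjusted p = 0.808). In bulk RNA, more cells with a transcript and more transcript per cell cannot be told apart.

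**Figure D1:**
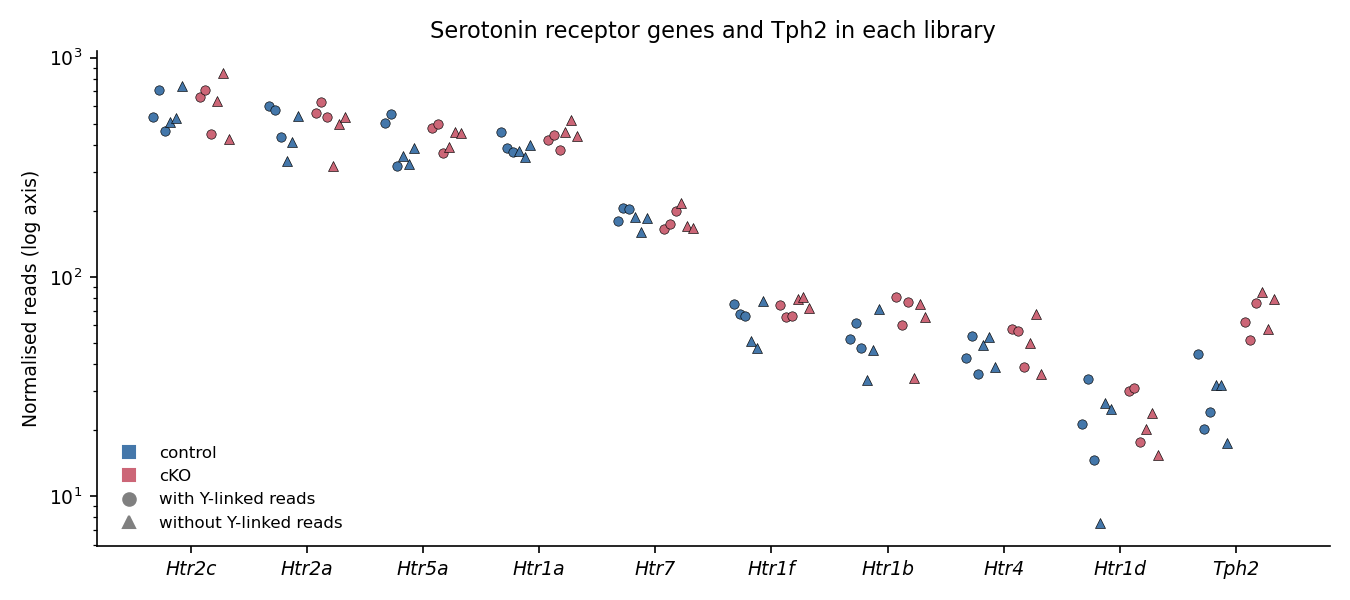
Normalised reads (log axis) of the 9 receptor genes and Tph2 in each of the 12 libraries, coloured by genotype and shaped by the presence of Y-linked reads. Tph2 in the cKO lies between 51.5 and 85.4, above the control range of 17.5 to 44.4, whereas the 2 groups overlap for each receptor.

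Of the 10 members, 1 was called between the genotypes, Tph2, by limma at an adjusted p under 0.05 over all tested genes. The background was 0.834% of tested genes, 0.764% for genes higher in the cKO and 0.0695% for lower ones. At an unadjusted p under 0.05 it was 9.73%. Since the members were chosen with this contrast known, nothing is read from that count. For each of the 9 receptor genes the ranges of the genotypes overlapped. Their median log2 fold change was 0.14, with 8 of 9 above 0, beside a median of -0.00069 and 49.9% above 0 for all tested genes. Without control libraries 4 and 5, those with the most mitochondrial ribosomal RNA, 5 of 9 lay above 0 and the median was 0.02. Without control library 3 alone the median was 0.05, with 8 of 9 above 0, and without cKO library 3 it was 0.22.

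The Htr1 genes encode receptors that inhibit adenylyl cyclase. Htr1a, present on cortical pyramidal neurons and known as the autoreceptor of raphe cell bodies, stood at 351, 380 and 457 normalised reads (lowest, median and highest) in the controls. In the cKO the same 3 values were 379, 440 and 519. Its log2 fold change was 0.18 (95% interval -0.01 to 0.38), and 2 of 6 cKO libraries lay above the highest control.

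Htr1b, the receptor of axon terminals, ranged from 33.8 to 71.4 normalised reads in the controls (median 49.6) and from 34.4 to 81.0 in the cKO (median 70.4). Library 4 was lowest in both genotypes. The log2 fold change was 0.31 (95% interval -0.12 to 0.75). The gene overlaps D430036J16Rik in RefSeq, and the sources used here do not say whether reads were counted by strand, so the pair may share reads; D430036J16Rik had a log2 fold change of 0.46 (SE 0.30).

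Htr1d, a close relative of Htr1b, was the lowest of the receptor members, at 7.52 to 34.3 normalised reads in the controls (median 23.2) and 15.4 to 31.0 in the cKO (median 22.0). With as few as 4 reads in control library 4, its interval was the widest of the 10, from -0.45 to 0.81 on the log2 scale. Htr1f ranged from 47.5 to 77.6 normalised reads in the controls (median 67.0) and from 65.3 to 81.0 in the cKO (median 73.1). Control libraries 4 and 5 held the 2 lowest Htr1f values, at 50.7 and 47.5; the part of their RNA composition in the log2 fold change of 0.20 (95% interval -0.10 to 0.51) was not tested beyond the fit without them, in which Htr1f lay below 0.

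The Htr2 genes encode receptors that act through phospholipase C. Htr2a, the receptor through which serotonergic hallucinogens act on cortical pyramidal neurons, ranged from 336 to 601 normalised reads in the controls (median 487) and from 320 to 627 in the cKO (median 535). In both genotypes library 4 was the lowest. Its log2 fold change was 0.08 (95% interval -0.21 to 0.38).

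Htr2c, an X-linked gene whose transcript is known for RNA editing, had the highest receptor level, at 460 to 741 normalised reads in the controls (median 532) and 427 to 848 in the cKO (median 648). The cKO libraries held both the highest and the 2 lowest of the 12 values. The log2 fold change was 0.08 (95% interval -0.27 to 0.43). The span of Htr2c holds 8 other RefSeq genes, among them Snora35 and Mir448. Choroid plexus epithelium is a known strong source of Htr2c RNA. The 8 choroid plexus markers summed to 116 to 141 normalised reads in the controls and 101 to 153 in the cKO, with Kl the highest in every library. Kcne2 and Otx2 were at 0 in 7 and 8 of the 12 libraries, whereas Kl, Ttr, Clic6, Folr1, F5 and Aqp1 had reads in all 12. Ttr varied most widely in reads after Kl, from 7 to 58 per library. The part of this tissue in the Htr2c values was not tested.

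Of the receptors that couple to Gs, Htr4 ranged from 36.1 to 53.7 normalised reads in the controls (median 45.8) and from 36.0 to 67.4 in the cKO (median 53.3). Its log2 fold change was 0.14 (95% interval -0.23 to 0.51). Htr7 ranged from 159 to 207 normalised reads in the controls (median 187) and from 165 to 217 in the cKO (median 173). It was the only receptor member with a log2 fold change below 0, at -0.04 (95% interval -0.26 to 0.17). Htr5a, of the Gi/o-coupled Htr5 type, ranged from 322 to 551 normalised reads in the controls (median 372) and from 368 to 500 in the cKO (median 456), all within the control range. Its log2 fold change was 0.14 (95% interval -0.14 to 0.41).

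**Figure D2:**
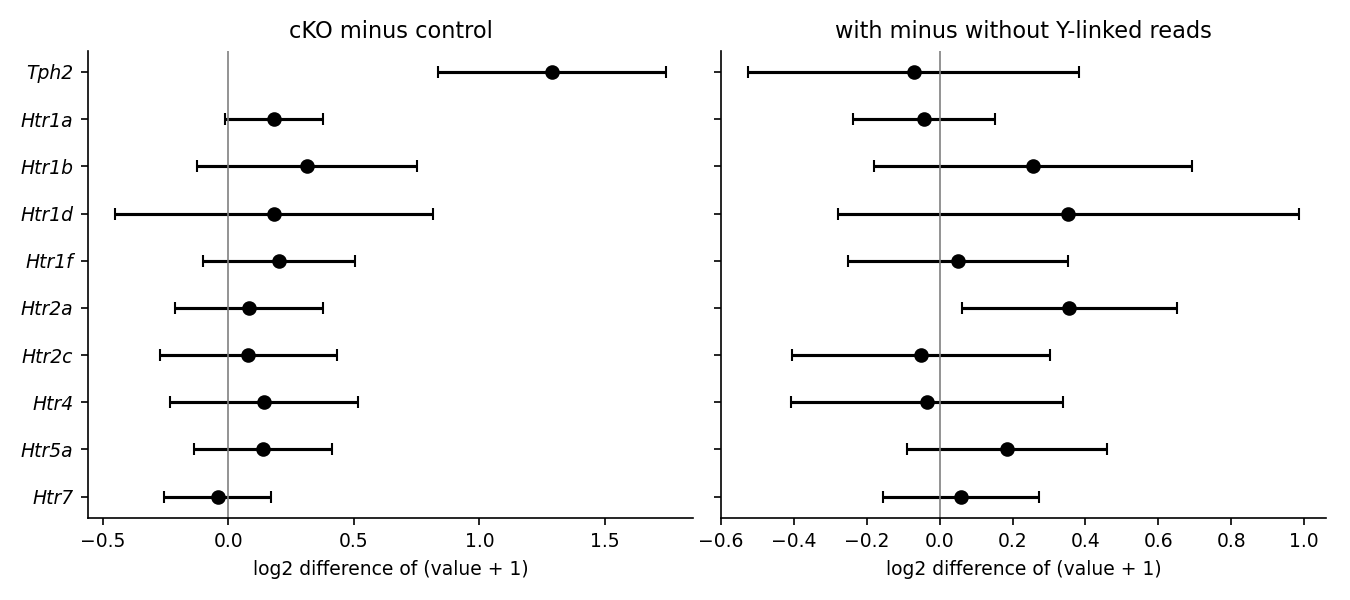
Log2 differences of (value + 1) for the 10 genes with 95% intervals from limma, for cKO minus control (left) and for libraries with minus without Y-linked reads (right), over 12 libraries. On the left the interval of Tph2 (0.83 to 1.74) lies apart from 0, and on the right that of Htr2a does (0.06 to 0.65). Htr2a was not called in the contrast on the right.

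Levels of different genes were compared as normalised reads per kilobase of the longest GENCODE transcript. In the controls Htr2c led with 119 ± 23.6 per kb (SD, n = 6). Htr1a followed with 86.9 ± 8.18, Htr2a with 86.2 ± 18.8 and Htr5a with 75.8 ± 17.9 per kb, and none of these 3 differed from its neighbour beyond their spread. Htr7 came next with 59.4 ± 5.53 and Htr1f with 24.9 ± 4.81 per kb, a gap of 3.34 times the sum of their SDs. Htr1b (11.0 ± 2.77), Tph2 (10.8 ± 3.76), Htr4 (9.78 ± 1.60) and Htr1d (7.43 ± 3.25) formed the low end and overlapped one another. In the cKO, Tph2 stood at 26.1 ± 5.09 per kb beside Htr1f at 28.3 ± 2.56 and Htr1b at 13.9 ± 3.60.

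The shares of the single receptors in the receptor RNA overlapped between the genotypes. Htr2c, Htr1a, Htr2a, Htr5a and Htr7 together took 89.0% ± 0.76 of the 9 genes' summed reads per kb in the controls against 88.2% ± 0.68 in cKO libraries (SD, n = 6 each). Htr2c took 24.7% ± 2.80 and 24.3% ± 4.20, and Htr7 12.5% ± 1.82 and 11.3% ± 2.15, in that order. The summed normalised reads of the 9 genes ran from 1903 to 2647 in the controls and from 2128 to 2743 in the cKO.

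**Figure D3:**
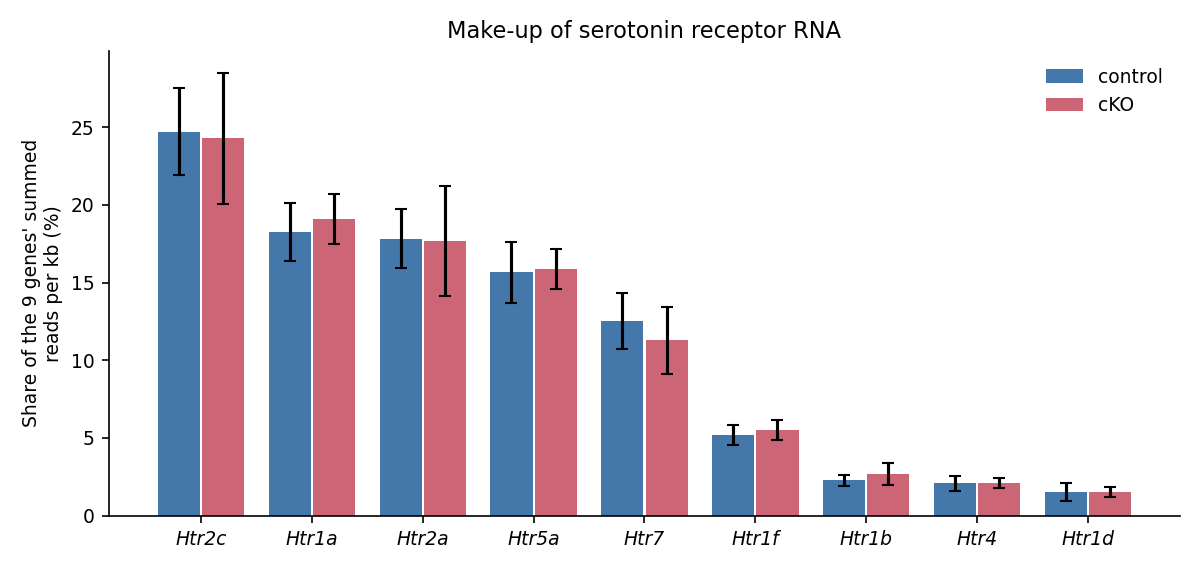
Share of each receptor gene in the 9 genes' summed normalised reads per kb, as the mean of 6 libraries per genotype with SD as error bars. Htr2c takes the largest share in both (24.7% and 24.3%), and the error bars of the genotypes overlap for each gene.

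The spread between libraries exceeded counting error for the abundant receptors. Htr2c varied by 19.9% of its mean in the controls and 25.8% in the cKO, where its reads alone would give 4.52% and 3.88% (the mean of 1 over the square root of the reads). Htr2a varied by 21.8% and 20.1%, against 5.03% and 4.27%. For Htr4 the spread in the cKO was 23.5%, against 13.5% from counting, while the 16.3% in the controls was close to that from counting alone. Tph2 varied by 34.7% in the controls and 19.5% in the cKO, against 20.9% and 11.4% from counting. Htr1a and Htr7 were the steadiest in the controls, at 9.41% and 9.31%.

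The contrast between libraries with and without Y-linked reads was not used to choose the genes and can be tested. None of the 10 was called (limma, adjusted p at least 0.384), and none was by edgeR or DESeq2 on the recovered reads, beside 0.0764% of all tested genes in limma. At an unadjusted p under 0.05, 1 of 10 differed, Htr2a, beside 11.7% of all tested genes. Htr2a no longer did so without control library 4, without cKO library 4, or without control libraries 4 and 5. Htr2a stood at 537 ± 90.8 normalised reads in controls with Y-linked reads and 429 ± 104 in those without, and at 573 ± 47.8 and 451 ± 114 in the cKO (SD, n = 3 each; log2 difference 0.36, SE 0.14, limma adjusted p = 0.384). The X-linked Htr2c had a log2 difference of -0.05 (SE 0.17). The genotype difference itself did not differ between the sets for any of the 10 (limma, adjusted p at least 0.585, and 0 of 10 at an unadjusted p under 0.05), beside 0% of all genes called and 8.77% at an unadjusted p under 0.05. edgeR and DESeq2 called none of the 10 either.

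Correlations between the members were computed across the 12 libraries. Of 45 pairs, 27 had a Pearson r above 0 after the genotype means were removed, from -0.60 to 0.82, and 0 passed a Benjamini-Hochberg adjusted permutation p under 0.05 (100000 permutations within genotype, two-sided). The highest was that of Htr1b with Htr2a (r = 0.82, permutation p = 0.00748, adjusted p = 0.194; Spearman rho 0.64, permutation p = 0.0449, adjusted p = 0.280). It rested on the 2 libraries farthest from the median of Htr1b, without which r was 0.34, and r was 0.12 within the set that had Y-linked reads and 0.97 within the other. Htr2a with Htr5a gave r = 0.68 (permutation p = 0.0213, adjusted p = 0.194; rho 0.76, permutation p = 0.0129, adjusted p = 0.280), and 0.82 without the 2 libraries farthest from the median of Htr2a. It was 0.87 with and 0.63 without Y-linked reads. Tph2 had r between -0.60 (Htr2c) and 0.07 with the receptors. For Tph2 with Htr2c the permutation p was 0.0347 (adjusted p = 0.260; rho -0.57, permutation p = 0.0605, adjusted p = 0.280), r without the 2 libraries farthest from the median of Tph2 was -0.62, and the values within the sets were -0.51 and -0.73.

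The rest of the serotonin pathway was examined next, from lists chosen by role but with earlier results of these data known. Calls in these lists and in the marker lists below are therefore descriptions and support nothing. Tetrahydrobiopterin is the cofactor that tryptophan hydroxylase consumes, and Pcbd1, the dehydratase of its recycling, rose in the cKO. Its control libraries ranged from 37.0 to 88.1 normalised reads (median 57.4) and its cKO libraries from 88.4 to 135 (median 117). Each cKO library thus lay above each control, though cKO library 2 and control library 5 were all but level. The means were 60.1 ± 18.6 and 115 ± 16.2 (SD, n = 6 each), and the log2 values differed by 0.96 (SE 0.18; adjusted p = 0.0130 by limma). Within the sets with and without Y-linked reads its log2 fold changes were 1.10 and 0.83 (difference 0.27, SE 0.37, limma adjusted p = 0.809). No RefSeq gene overlaps Pcbd1.

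Pcbd1 was 1 of 10 tested genes called among 11 for the cofactor and for tryptophan supply, with none lower, beside 0.834% of all tested genes. At an unadjusted limma p under 0.05, 3 of the 10 differed, beside 9.73% of all tested genes. The median log2 fold change of the 10 was -0.04. The same shares of all tested genes are the background for the counts in the lists below. Gch1, which catalyses the first step of cofactor synthesis, stood at 18.9 to 37.6 normalised reads in the controls and 11.9 to 32.9 in the cKO, with 5 of 6 cKO libraries below the lowest control (log2 fold change -0.50, SE 0.23, limma adjusted p = 0.501). Qdpr, the reductase that completes recycling, stood at 3496 ± 711 and 3097 ± 478 normalised reads (SD, n = 6 each, control first). The heavy and light chains of the transporter that brings in tryptophan, Slc3a2 and Slc7a5, stood at 1710 ± 149 and 1492 ± 232 in the controls and 1733 ± 200 and 1600 ± 48.3 in the cKO.

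**Figure D4:**
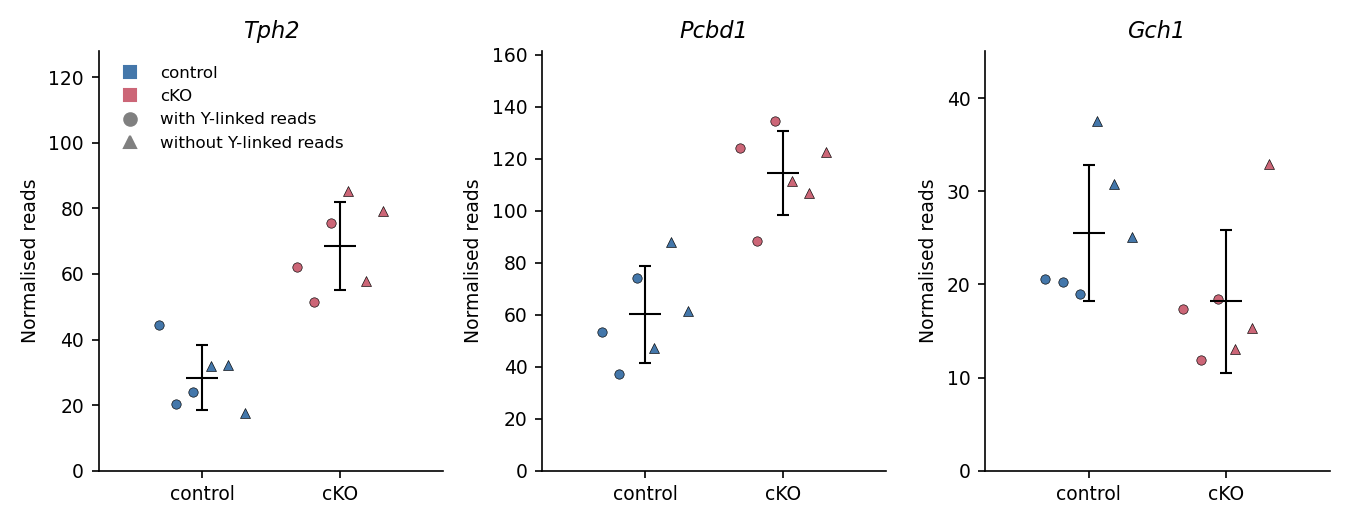
Normalised reads of Tph2 and of the cofactor genes Pcbd1 and Gch1 per library, with the mean and SD of 6 libraries per genotype. Pcbd1 lies at 37.0 to 88.1 in the controls and 88.4 to 135 in the cKO, and for Gch1 5 of 6 cKO libraries lie below the lowest control.

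Of 12 genes for serotonin synthesis, storage, uptake and breakdown, 11 were in the table and 6 passed the filter, of which 0 were called, with a median log2 fold change of -0.0035 (0 at an unadjusted p under 0.05). The degrading enzymes were the most abundant. Maoa stood at 596 ± 75.0 normalised reads in the controls against 586 ± 79.0 in cKO libraries, Maob at 407 ± 55.8 and 409 ± 34.4, and Aldh2 at 1491 ± 117 and 1450 ± 168 (SD, n = 6 each). Ddc, the decarboxylase that follows Tph2, ranged from 79.0 to 180 in the controls and from 93.2 to 146 in the cKO. Tph1, the peripheral hydroxylase, had 2 to 15 reads per library and was below the filter. Th, the hydroxylase of catecholamine synthesis, stood at 24.7 ± 6.86 and 27.0 ± 6.28 normalised reads.

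Several defining genes of serotonergic neurons were at or near 0 in both genotypes. Slc6a4, the serotonin transporter, had at most 1 read per library and was at 0 in 6 of 12. Fev, the transcription factor of serotonergic identity, had at most 3 reads and was at 0 in 8. Slc18a2, the vesicular monoamine transporter, had at most 5, and Gata3 and En1 were at 0 in 11 of 12 each. Other genes of the list had more reads: Lmx1b at most 6, Gchfr at most 8, En2 1 to 14 and Slc22a3 18 to 59 per library. The 12 raphe markers summed to 540 to 778 normalised reads in the controls and 609 to 722 in the cKO (exact permutation test, two-sided, p = 0.944). Most of the sum came from Maob, Ddc and Gata2, which are not confined to serotonergic neurons. These stood at 407, 110 and 74.4 normalised reads on average in the controls, and the source of their reads was not tested. Of the 4 raphe markers that passed the filter 0 were called.

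Among the 5 receptor genes outside the group, 3 passed the filter and 0 were called (0 at an unadjusted p under 0.05), with a median log2 fold change of -0.19. Htr3a, the ion channel subunit that marks a class of interneurons, stood at 86.3 ± 17.2 normalised reads in the controls against 72.5 ± 9.97 in cKO libraries. Htr6 stood at 54.1 ± 18.1 and 46.2 ± 9.89, and Htr5b at 16.5 ± 5.24 and 23.4 ± 10.2 (SD, n = 6 each). Htr2b and Htr3b had at most 2 and 3 reads per library. Of 27 genes for receptor coupling, which include G protein subunits, adenylyl cyclases, phospholipases and GIRK channels, 0 were called (1 at an unadjusted p under 0.05), with log2 fold changes from -0.31 to 0.26 and a median of 0.03. The most abundant, Adcy1, Gnas and Gnao1, differed by -0.03, -0.0027 and 0.10 on the log2 scale.

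Marker lists of neighbouring regions and of cortical neurons were summed for each library. Each sum mostly follows the most abundant genes of its list, so it says little about the scarcer markers. Over the 15 lists the smallest exact permutation p for the summed level, two-sided, was 0.128 (thalamus; adjusted p = 0.865). That list, led by Slc17a6, Rora and Ntng1, ran from 1682 to 2124 normalised reads in the controls and from 1798 to 2194 in the cKO. Striatal markers, among them Ppp1r1b and Penk, ran from 4169 to 6341 and from 4154 to 6344. Interneuron markers, led by Gad1, 6330527O06Rik (Lamp5) and Sst, ran from 13839 to 19557 and from 15130 to 18906. Deep-layer markers, led by Bcl11b, Tle4 and Crym, ran from 6449 to 8055 and from 6581 to 7491. Upper-layer markers, led by Rasgrf2, Cux2 and Calb1, ran from 9874 to 12043 and from 11054 to 12404. The list named pan-neuronal, led by Snap25, Mtap2 and Slc17a7, ran from 118200 to 136378 and from 121181 to 140372. Slc17a7 marks excitatory neurons, so this sum is pan-neuronal only in part. Hippocampal markers, led by Zbtb20, Fibcd1 and Prox1, ran from 1042 to 1682 and from 1103 to 1434. Zbtb20 alone stood at 481 to 1144 in the controls and 567 to 762 in the cKO. Lct, in the hippocampal list, was the only gene called in the marker lists (limma adjusted p = 0.00149), rising from 28.3 ± 10.6 to 66.0 ± 10.2 normalised reads (SD, n = 6 each), with 5 of 6 cKO libraries above the highest control. The choroid plexus leaders, Kl, Ttr and Clic6, were not called.

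**Figure D5:**
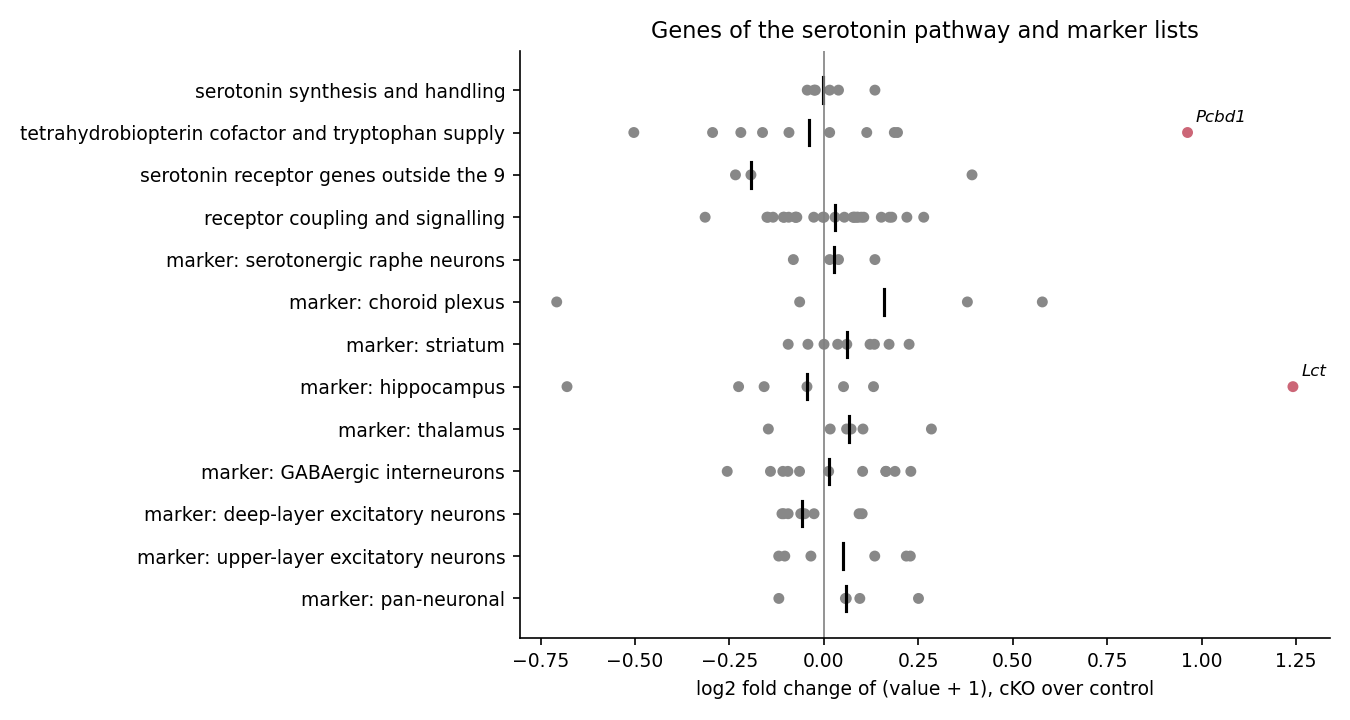
Log2 fold change of (value + 1), cKO over control, of each tested gene of the pathway and marker lists, with the list median as a black bar and called genes in red; the lists of aromatic hydroxylases and catecholaminergic neurons, with 1 tested gene each, are not drawn. Pcbd1 (0.96) and Lct (1.24) are the called genes.

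The nearest genes of the table on each side of Tph2 were compared as well. Trhde, a peptidase gene, stood at 776 ± 88.5 normalised reads in the controls against 783 ± 42.8 in cKO libraries, Tbc1d15 at 564 ± 27.9 and 569 ± 67.0, and Rab21 at 1125 ± 48.2 and 1184 ± 179 (SD, n = 6 each). None of these 3 was called (limma adjusted p from 0.792 to 0.984), and Gm15723, the fourth neighbour, stood at about 2 normalised reads and was not tested.

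The 5 genes whose log2 values over the 12 libraries were most like those of Tph2 were Fbp1, Hkdc1, Cpxm2, Il6st and Asb2. Their Pearson r with Tph2 was 0.94, 0.92, 0.91, 0.90 and 0.90, and 0.747, 0.615, 0.521, 0.656 and 0.646 once genotype and set were removed. These are descriptions over libraries that share the genotype difference. Fbp1, a fructose bisphosphatase, stood at 5.07 ± 1.75 and 15.9 ± 3.65 normalised reads, Hkdc1, a hexokinase, at 299 ± 27.1 and 444 ± 32.0, and Cpxm2, a carboxypeptidase-like protein, at 51.0 ± 4.81 and 131 ± 29.6 (SD, n = 6 each, control first). Il6st, the shared receptor chain of the interleukin 6 family, stood at 1573 ± 141 and 1950 ± 131, and Asb2 at 40.7 ± 6.62 and 59.4 ± 8.63. As they were chosen for likeness to Tph2, their genotype differences are given with no test, and Fbp1, whose control mean lies under the filter of 10, passed it only through the cKO libraries.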

How the data were processed

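The 6 control and 6 cKO RNA-seq libraries of cortex were made from 250 ng of total RNA with a directional kit, per the labels' protocols. Tools named in the submitters' processing notes are STAR, Bowtie, Trim Galore and bedtools, with build mm9 and without versions or roles. The deposited signal values are counts normalised by the authors with DESeq2, per the file headers. All values (100%) were whole multiples of 1 step per library within 0.01 reads, which gave whole reads. The table also holds the authors' deposited log2 fold change and its standard error, a score (a Wald statistic), and p-values, raw and adjusted, for each gene; these were not used in the text.

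The main test was limma (3.58.1, R 4.3.3) fitted to log2(value + 1) with a mean-variance trend. Its terms were genotype and set (the sum of 4 Y-linked genes above 100), it was two-sided, and it covered 14397 genes averaging 10 or more. The call threshold was a Benjamini-Hochberg adjusted p of 0.05. Interaction values came from 4 genotype-by-set groups. Alternatives were edgeR 4.0.16 and DESeq2 1.42.0 on recovered reads, pseudocounts, filters, scalings, no set term, a replicate block, libraries left out and removal of a transcript length trend. The fit was tested on simulated data, in which the changed genes were drawn from those averaging more than 50. That test therefore did not cover the level of Tph2 or of members below it.

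The members, lists and alternatives were chosen with earlier results of these data known. The rule named the members, Nsd1, the called genes (at most 4) and the 3 highest means of each list, the 5 genes most like Tph2 and 4 neighbours; other listed genes are named for their role after their values were seen. Older symbols were matched for 4 list genes through RefSeq (GRCm38), and 1 gene, Asmt, was not matched. Counting error is given by the reads, and the intervals cover the spread between libraries. Some genes of the lists are not reported here by name.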

Additional observations from a re-analysis of the deposited data

How the results depend on the processing

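Tph2 was called in each of the 23 alternatives that tested it (log2 fold change 1.15 to 1.45, adjusted p at most 0.0217 over the limma, edgeR and DESeq2 fits). Its mean lies under the stricter filter of 50. Since Tph2 was picked for this difference in these same libraries, the repeated calls are a description and support nothing. Pcbd1, from a list drawn up with earlier results known, was called in all 24 alternatives (0.84 to 1.11). Its highest adjusted p was just under the threshold (limma adjusted p = 0.0479, without cKO library 1). The genotype count, 120 (110 higher, 10 lower), was 58 with a mean of at least 50, 150 with no filter, 169 in DESeq2 (26 lower) and 97 to 123 with 1 library left out. The set count, 11, was 60 in DESeq2, 18 with the length trend removed and 9 to 19 with 1 library left out, the highest without cKO library 3. The interaction count, 0, was 3 in DESeq2 and 0 to 7 with 1 library left out, the highest without control library 6. Nsd1 was called with the length trend removed (-0.49, adjusted p = 0.0034) and ran from -0.45 to -0.29 with 1 library left out. The cause of these shifts was not tested.

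The small set differences changed sign. Without control libraries 4 and 5 those of Tph2, Htr1f and Htr4 were 0.061, -0.17 and 0.068, and that of Htr4 was 0.013 after quantile normalisation. With 1 library left out they ran from -0.23 to 0.0095 (Tph2), -0.099 to 0.0052 (Htr1a), -0.034 to 0.12 (Htr1f), -0.17 to 0.051 (Htr2c) and -0.14 to 0.056 (Htr4). The replicate numbers were not used as pairs, since deviations of same-numbered libraries correlated by 0.197, 0.455 and 0.48 for numbers 1 to 3 but by 0.045, -0.098 and 0.034 for numbers 4 to 6. As a hint from the data, 6 of 12 libraries correlated best with their own number. A replicate block gave 118 called genes, and 1816 in place of 1401 at an unadjusted p under 0.05. Depth limits the members with few reads, such as Htr1d with 4 to 47 per library.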

Other observations

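Dbh, the enzyme that turns dopamine into noradrenaline and a marker of noradrenergic neurons, lay below the filter and was not part of the main comparison. It stood at 8.63 ± 1.98 normalised reads in the controls against 3.62 ± 1.87 in cKO libraries (SD, n = 6 each), on 1 to 11 reads per library, and was named after its values were seen. In the fit without a filter its log2 fold change was -1.15 (SE 0.30, limma adjusted p = 0.140), so it was not called. Of the other genes of the catecholaminergic list, Slc6a3 and Slc6a2 had at most 5 and 3 reads, and Th stood at 24.7 ± 6.86 and 27.0 ± 6.28 normalised reads. The summed level of the list's 5 genes ran from 28.2 to 48.8 in the controls and from 19.0 to 40.9 in the cKO (exact permutation test, two-sided, p = 0.634).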
